A study of Mus musculus with 11 samples.

Results

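The electron transport chain and ATP synthase of the inner mitochondrial membrane were followed here through the 80 nuclear genes that encode their subunits, among 18193 genes with a named probe set. A gene was included when its symbol began with Ndufa, Ndufb, Ndufc, Ndufs or Ndufv and a digit, with Uqcr, Cox4i, Cox5, Cox6, Cox7, Cox8 or Atp5, or was Cyc1, Sdhc or Sdhd, and assembly factors were left out. This gave 33 subunits of complex I, 2 of complex II, 9 of complex III, 19 of complex IV, counting Ndufa4 and its paralog Ndufa4l2, and 17 of complex V. For a gene with several probe sets, the one brightest on average across the 11 arrays was taken, a choice that did not use the groups. No filter on low values was applied, so all 80 were tested, and 7 of them, mainly muscle and testis isoforms, lay at or below the median gene.

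All cells came from the bone marrow of Rag1-/- C57BL/6 mice aged 7 weeks, which lack mature B and T lymphocytes, and were kept in culture for 7 days, after which cells positive for F4/80, a surface protein of mouse macrophages encoded by Adgre1, were sorted. M1 cells were given interferon-gamma and, over the last 24 h, lipopolysaccharide (3 arrays), M2a cells were given IL-4 and IL-13 (3 arrays), and M0 cells were given no cytokine (5 arrays). The labels name no growth factor and do not say whether replicates came from separate mice or cultures, so the p-values rest on array-to-array spread, which may be technical. Values are the deposited log2 values of Affymetrix Mouse Genome 430 2.0 arrays, errors are SD for means and standard errors (SE) for differences, and a difference was called at an adjusted p below 0.05 from limma over all 18193 genes.

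Complex I takes electrons from NADH and complex II takes them from succinate, both pass them to ubiquinone, and complex III carries them on to cytochrome c. Complex IV hands them to oxygen, and complex V uses the proton gradient built up on the way to make ATP. In mouse macrophages, interferon-gamma with lipopolysaccharide is known to favour glycolysis over respiration, and IL-4 is known to raise oxidative metabolism and fatty acid oxidation.

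The labels were checked first. All 5 measured M1 genes (Cxcl9, Acod1, Il1b, Tnf and Nos2) were higher in M1 than in M0 cells, and 4 of 5 M2a genes (Arg1, Mgl2, Retnla and Chil3) were higher in M2a than in M0 cells, while Mrc1, at 0.77, did not pass. Arg1 was also higher in M1 than in M0 cells, by 3.48. The mean level of 8 macrophage markers was 11.86 to 11.87 in M1 arrays, 9.99 to 10.33 in M2a arrays and 10.63 to 11.37 in M0 arrays. That of 11 neutrophil lineage markers was 7.26 to 7.43 in M1 arrays, 5.38 to 5.47 in M2a arrays and 11.42 to 12.88 in M0 arrays, and 6, 3 and 11 of the 11 lay above the median gene. The 10 markers of eosinophils, basophils and mast cells averaged 3.89 to 3.94 in M1, 4.25 to 4.40 in M2a and 6.70 to 8.54 in M0 arrays. The 8 markers of stroma and endothelium averaged 5.02 to 5.07 in M1, 4.18 to 4.34 in M2a and 5.54 to 6.24 in M0 arrays, with 3 lower in M1 and 6 lower in M2a. Of 6 erythroid and megakaryocyte markers, Ppbp, Pf4 and Itga2b were lower in both, by -6.10, -4.40 and -2.19 in M1 and by -4.61, -3.54 and -1.60 in M2a. Alas2 and Hba-a1 of that list were higher in M1, by 0.46 and 0.26, and 0 were higher in M2a. Of 5 B and T cell markers, Ms4a1 was lower and Cd3e higher in both, and Cd8a was higher in M1. None of these 5 lay above the median gene in any group. Markers of several other cell types thus moved with both comparisons against M0, and their part in the subunit differences was not tested. In such bulk samples fewer cells of a type and less RNA per cell cannot be told apart.

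A pair of technical features of the M0 arrays bears on what follows. Averaging M0 arrays 1, 2 and 3 gave the same value as averaging M0 arrays 4 and 5 on every probe set, to within 8.3e-05, so these 5 arrays cannot all be independent. The hybridization control probe sets, which detect transcripts spiked into every sample, averaged 9.48 ± 0.11 in M1 arrays, 9.67 ± 0.10 in M2a arrays and 10.97 ± 0.52 in M0 arrays (SD, n = 3, 3 and 5). They were highest in M0 arrays 1 and 4, at 11.56 and 11.49, and the median subunit was 10.21 in both of these, against 10.52 to 10.56 in M0 arrays 2, 3 and 5. The difference between the 5′ and 3′ actin probe sets, a measure of RNA length, was 0.15 ± 0.02 in M1, -0.57 ± 0.06 in M2a and -0.61 ± 0.47 in M0 arrays. Spiked poly-A controls averaged 5.62 ± 0.05 in M1, 6.40 ± 0.10 in M2a and 9.62 ± 0.50 in M0 arrays, and the 18S probe set 6.25 ± 0.08, 8.56 ± 0.07 and 9.25 ± 0.27. For all subunits together and for each complex, counts are therefore also given from fits that hold the hybridization controls or the actin difference as a covariate. Hybridization controls ran from 10.44 to 11.56 in M0 arrays and from 9.35 to 9.78 in M1 and M2a arrays, without overlap. Against M0, this covariate cannot be told apart from the group, and its slope rests mostly on the tied M0 arrays. The actin difference of M1 arrays, at least 0.13, also lay above all others. Values with these covariates are therefore not corrected effects.

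**Figure D1:**
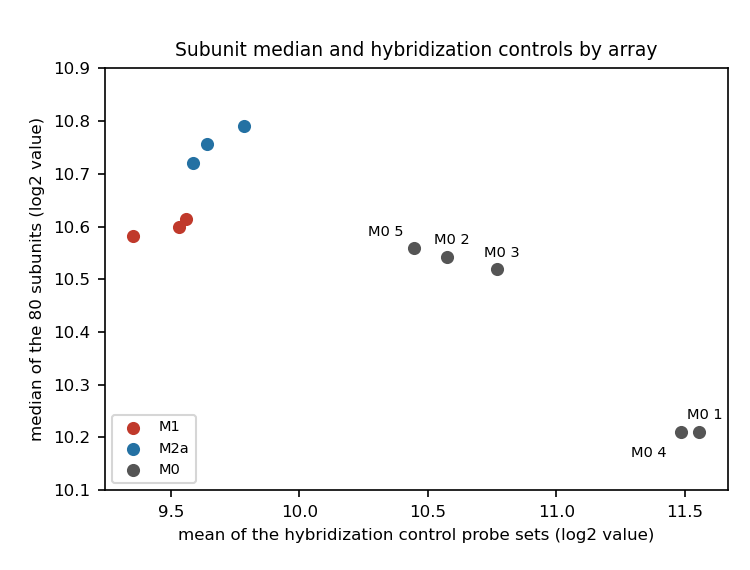
Each point is 1 array. The x axis gives the mean log2 value of the hybridization control probe sets and the y axis the median log2 value of the 80 subunits; M0 arrays 1 and 4 sit at 11.56 and 11.49 on the x axis with the lowest medians, 10.21, while M1 and M2a arrays lie between 9.35 and 9.78 on the x axis.

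Against M0, M1 cells had 36 of the 80 subunits higher and 16 lower (limma, adjusted p below 0.05), with a median difference of 0.29 on the log2 scale over the 80. Over all genes tested, 22.1% were called higher and 17.6% lower, and the median difference was 0.06. Higher calls covered Sdhd and Sdhc of complex II, Cyc1 and Uqcrc2 of complex III, Atp5b of complex V and Ndufs3 of complex I, while the 2 largest falls were in Cox7a2l, a factor that joins complexes III and IV, and in the complex I subunit Ndufb11. Differences ran from -1.39 to 1.29, and 2 subunits rose and 2 fell by at least 2-fold, where 6.27% and 6.41% of all genes did. The arrays of the groups did not overlap for 38 higher and 15 lower subunits, against 22.7% and 17.4% of all genes. Most subunits are abundant transcripts, and among genes above the median gene 30.3% were called higher and 20.5% lower. The fit with the hybridization covariate called 5 subunits higher and 14 lower, with a median of -0.16. Of all 18193 genes, that fit called 3869 higher and 3976 lower. Cox4i2 and Cox8b among the higher subunits, and Atp5g1, Atp5h, Atp5j2 and Ndufs1 among the lower, were not called without the covariate. With the actin covariate 19 subunits were higher and 14 lower, with a median of 0.10, beside 3923 and 3327 of all genes. Quantile normalization gave 28 higher and 20 lower, 58.3% of the calls higher in place of 69.2%, with a median of 0.12. It called 4826 of all genes higher and 3761 lower.

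M2a cells had 41 subunits higher and 5 lower than M0 cells, with a median difference of 0.31 over the 80, where 18.6% of all genes were called higher and 13.3% lower around a median of 0.07. The largest rise was in Cox6a2, the complex IV subunit VIa of heart and skeletal muscle, at 2.53, and the next largest were Sdhc at 1.28 and Cyc1 at 0.87. The 5 lower subunits were Cox6b2, Cox7b2, Ndufb3, Uqcrh and Ndufa4, the lowest at -0.50. Past 2-fold, 2 subunits were higher and 0 lower, beside 4.41% and 4.95% of all genes, and arrays did not overlap for 48 higher and 6 lower subunits, beside 21.3% and 13.9%. Among genes above the median gene, 25.7% were called higher and 18.1% lower. With the hybridization covariate 13 subunits were higher and 8 lower, with a median of 0.02, beside 4137 and 4021 of all 18193 genes. With the actin covariate 48 were higher and 5 lower, beside 5008 and 3372 of all genes. Leaving out M2a array 1 or M2a array 2 lowered the number of higher calls to 27. Over all genes, higher calls fell from 3380 to 2312 and 2372 in these fits.

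M1 cells set directly against M2a cells had 8 subunits higher and 24 lower, with a median difference of -0.08, beside 13.7% and 15.6% of all genes and a median of -0.02. Here the M0 arrays entered only through the shared estimate of spread, and the hybridization controls averaged 9.48 in M1 and 9.67 in M2a arrays, but the poly-A, 18S and actin measures above differed between M1 and M2a by more than their SDs. Complex I held 14 of the 24 lower subunits and 5 of the 8 higher ones. The widest gaps were in Cox6a2, at -2.75, Cox7a2l, at -1.87, Ndufb11, at -1.23, and Ndufa13, at -1.16. These 4 were the only subunits past 2-fold, and 0 were higher by that much, beside 5.47% of all genes lower and 5.51% higher. Arrays did not overlap for 19 higher and 39 lower subunits, beside 30.7% and 33.9% of all genes, and among genes above the median gene 21% were called higher and 20.7% lower. With the hybridization covariate 9 subunits were higher and 33 lower, with a median of -0.11, beside 3834 and 4269 of all 18193 genes. With the actin covariate 4 were higher and 32 lower, with a median of -0.26, beside 3248 and 3762 of all genes. Quantile normalization gave a median of -0.16. Array weights gave 17 higher calls, beside 5321 of all genes, where the main fit called 2500 of all genes higher.

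The comparisons of M1 and of M2a with M0 share the M0 arrays, and their calls are set side by side here without a test. Of the 80 subunits, 24 were higher in both, or 30%, beside 7.96% of all genes, and 3 were with the hybridization covariate, beside 13.2% of all genes. Another 11 were called higher in M1 and not called in M2a, and 13 the other way, beside 12.4% and 8.85% of all genes. Uqcrh, Ndufa4, Cox6b2 and Cox7b2, or 5%, were lower in both, beside 7.51% of all genes. Called lower in M1 and not called in M2a were 8, or 10%, beside 8.28% of all genes. Called in neither were 15, or 18.8%, beside 47.4% of all genes. Ndufa13, Ndufa6, Cox7a2l and Cox4i1, or 5%, were lower in M1 and higher in M2a, beside 1.77% of all genes. Ndufb3, or 1.25%, was higher in M1 and lower in M2a, beside 1.7% of all genes. The M2a call of Ndufa6 was lost under 18 of 24 alternative analyses, and its M1 call under 13.

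**Figure D2:**
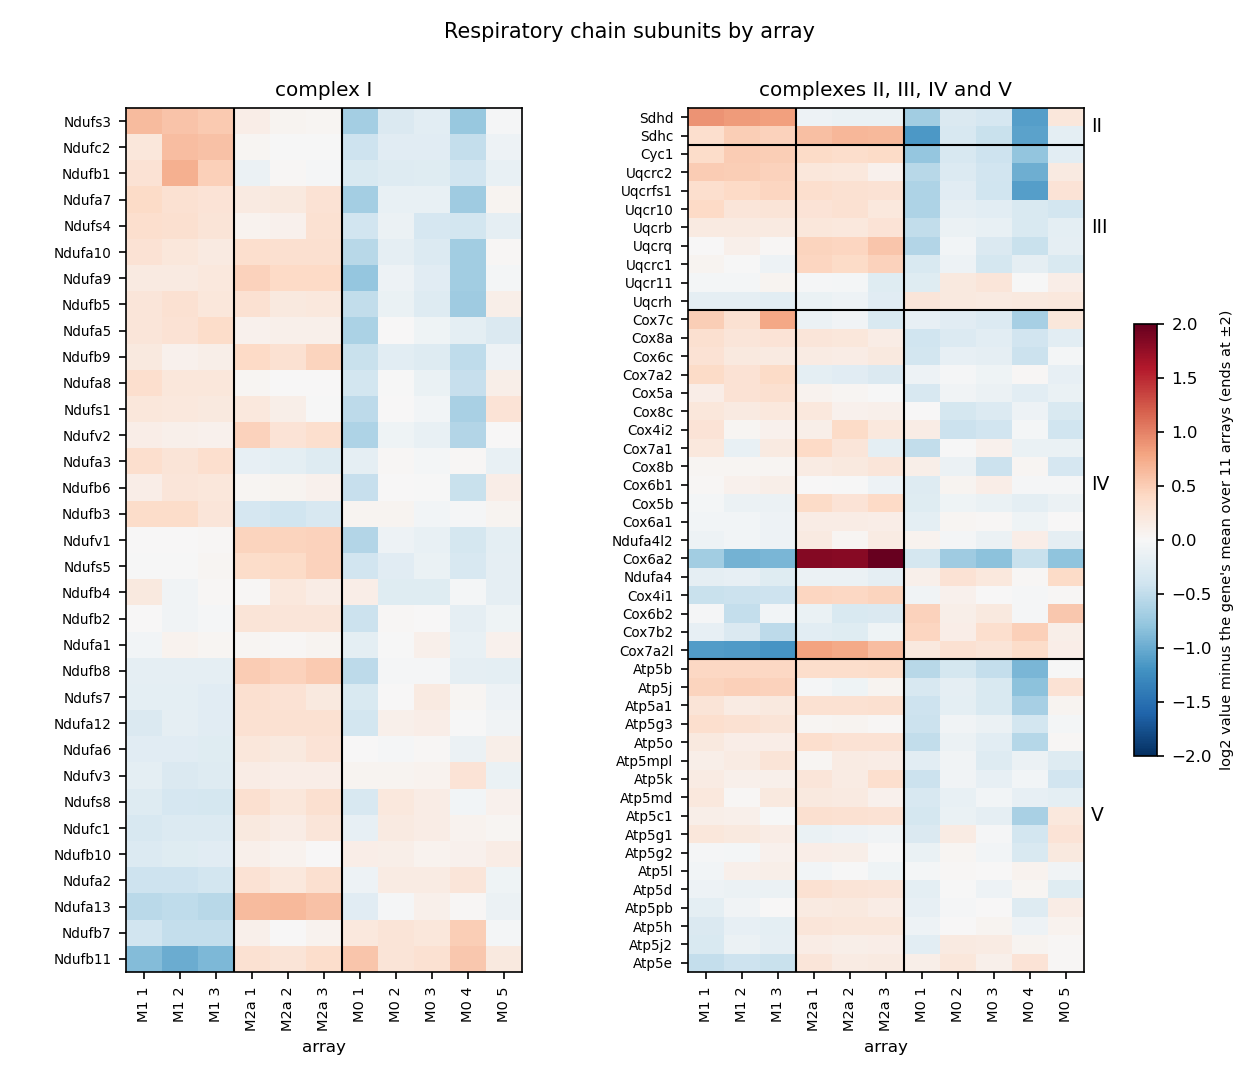
Rows are the 80 subunits, grouped by complex and ordered by M1 minus M0, and columns are the M1, M2a and M0 arrays. Colour gives the log2 value minus the gene's mean over the 11 arrays, with the ends of the scale at ±2; M0 arrays 1 and 4 are blue, below the gene's mean, in 63 and 60 rows, and Cox7a2l, Ndufb11 and Cox6a2 show the strongest contrast between M1 and M2a.

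The sequences upstream of 4 of these genes are shown because they mark the ends of the M1 response: Cox7a2l and Ndufb11 had the largest falls, Sdhd had the largest rise of all subunits, and Ndufs3 that of complex I. Each is the 250 bases before the transcription start, from RefSeq on GRCm38.p6, read 5′ to 3′ on the minus strand, which holds all 4 genes. Capitals mark a match to any of these motifs, searched on both strands: the site of nuclear respiratory factor 1 (NRF1; GCGC and TGCGC with any base between them), CCGGAAG of the ETS family that includes GABP, GCCATNTT of YY1, TCAAGGTCA of the oestrogen-related receptors and, for STAT6, TTC and GAA with any 4 bases between them. In the windows below no 2 matches overlap. Cox7a2l (chr17:83514334-83514583) held none of them, Ndufb11 (chrX:20617620-20617869) a YY1 match 211 bases before the start, Sdhd (chr9:50603850-50604099) an NRF1 match at 79 and an ETS match at 46 bases, and Ndufs3 (chr2:90904722-90904971) an ETS match at 27 bases.
Cox7a2l: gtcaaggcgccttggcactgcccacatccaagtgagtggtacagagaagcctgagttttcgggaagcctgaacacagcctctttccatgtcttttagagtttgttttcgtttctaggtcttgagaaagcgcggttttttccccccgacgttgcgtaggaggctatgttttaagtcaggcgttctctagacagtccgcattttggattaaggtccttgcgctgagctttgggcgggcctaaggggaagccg
Ndufb11: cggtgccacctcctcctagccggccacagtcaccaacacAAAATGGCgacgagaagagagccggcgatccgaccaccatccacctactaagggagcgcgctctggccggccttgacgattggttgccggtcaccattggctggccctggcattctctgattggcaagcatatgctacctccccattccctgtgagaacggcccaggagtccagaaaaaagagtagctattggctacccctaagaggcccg
Sdhd: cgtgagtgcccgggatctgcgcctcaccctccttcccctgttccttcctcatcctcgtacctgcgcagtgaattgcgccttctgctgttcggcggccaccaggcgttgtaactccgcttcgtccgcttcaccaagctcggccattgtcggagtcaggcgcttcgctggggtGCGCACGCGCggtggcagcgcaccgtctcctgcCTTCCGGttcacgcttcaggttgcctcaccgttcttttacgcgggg
Ndufs3: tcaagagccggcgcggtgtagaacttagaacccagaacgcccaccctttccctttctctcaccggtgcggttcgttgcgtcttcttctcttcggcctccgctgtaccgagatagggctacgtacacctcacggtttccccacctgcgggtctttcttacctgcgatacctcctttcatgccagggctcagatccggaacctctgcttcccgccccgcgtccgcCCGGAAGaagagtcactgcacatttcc

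Promoter windows were given for 64 of the 80 subunit genes and for 27025 genes in all. NRF1 letters stood in 10 of the 64, 15.6%, beside 4.23% of all genes, and ETS letters in 12, 18.8%, beside 7.83%. YY1 letters were in 6 windows, 9.38%, beside 4.49% of all genes. Letters of the site of STAT6, the factor that IL-4 activates, were in 3 windows, 4.69%, beside 6.76% of all genes. NRF1 letters were in 5 of the 26 windows of subunits higher in M1, in 0 of the 14 of subunits lower in M1 and in 5 of the 24 of subunits not called. ETS letters were in 3, 3 and 6 of these windows and YY1 letters in 3, 3 and 0, and no test was made of these counts. Letters of the oestrogen-related receptor site were in 1 of the 64 windows. A match is a stretch of letters and not a measured binding site.

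Complex I had 14 of 33 subunits higher and 9 lower in M1, and 16 higher and 1 lower in M2a, against M0, beside the 22.1% and 17.6% of all genes in M1 and 18.6% and 13.3% in M2a that also stand against the counts of the other complexes. These were 1 and 7 in M1 and 3 and 4 in M2a with the hybridization covariate, and with the actin covariate 6 and 6, and 18 and 1. For each complex, the counts of all genes under either covariate are those given above. Among the 6 core subunits, which belong to the conserved catalytic part, 1 was higher and 1 lower in M1 and 4 were higher in M2a. Ndufs3, a core subunit of the matrix arm, measured 10.79, 10.73 and 10.68 in M1 arrays, 10.29, 10.22 and 10.19 in M2a arrays and 9.48, 9.87, 9.95, 9.40 and 10.13 in M0 arrays. Every M1 array lay above every M2a array, and every M2a array above every M0 array. Its difference was 0.97 ± 0.15 in M1 (adjusted p = 0.00041) and 0.47 ± 0.15 in M2a (adjusted p = 0.037) against M0, and 0.15 and -0.25 with the hybridization covariate. Ndufv1, which binds the flavin that takes electrons from NADH, averaged 9.93 ± 0.0081 in M1, 10.37 ± 0.0065 in M2a and 9.64 ± 0.20 in M0 cells. Ndufv1 rose by 0.73 ± 0.11 in M2a (adjusted p = 0.00042), and its difference of 0.29 ± 0.11 in M1 missed the threshold (adjusted p = 0.056). Its other probe sets gave 0.25 and 0.61 in M1 and 0.73 and 0.67 in M2a. With the hybridization covariate the M2a value was 0.31 (adjusted p = 0.087). Ndufs1, the largest iron-sulfur subunit, averaged 9.23 ± 0.02 in M1, 9.12 ± 0.11 in M2a and 8.83 ± 0.39 in M0 cells and passed the test in neither comparison (adjusted p = 0.11 and 0.26).

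The largest fall in complex I was in Ndufb11, an accessory subunit of the membrane arm encoded on the X chromosome. Ndufb11 measured 9.92, 9.80 and 9.89 in M1 arrays, 11.09, 11.05 and 11.15 in M2a arrays and 11.34, 11.05, 11.09, 11.33 and 10.99 in M0 arrays. The M1 arrays stood more than a full log2 unit below all others, and the M2a and M0 arrays overlapped. The difference between M1 and M0 was -1.29 ± 0.10 (adjusted p = 1.7e-06) and remained -0.87 with the hybridization covariate and -1.10 with the actin covariate. Its other 2 probe sets gave -1.12 and -0.32 in M1 against M0.

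Ndufa13, also known as GRIM-19 and first described as a product of cells given interferon and retinoic acid, divided the cytokine states in both directions. It measured 10.86, 10.89 and 10.84 in M1 arrays, 12.03, 12.04 and 11.99 in M2a arrays and 11.16, 11.37, 11.50, 11.41 and 11.28 in M0 arrays, and no group overlapped another. Ndufa13 was lower by -0.48 ± 0.09 in M1 (adjusted p = 0.0013) and higher by 0.67 ± 0.09 in M2a (adjusted p = 0.00017) than in M0 cells, and the gap between M1 and M2a was -1.16 ± 0.10 (adjusted p = 3.9e-06). All 3 calls stood in each of 23 alternatives. The fit without probe sets shared between transcripts could not include Ndufa13, whose only probe set is of that kind.

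Ndufb3, an accessory subunit of the membrane arm, ran the other way. It measured 10.13, 10.15 and 10.01 in M1 arrays, 9.43, 9.38 and 9.46 in M2a arrays and 9.83, 9.83, 9.72, 9.76 and 9.83 in M0 arrays, again with no overlap between groups. It was higher by 0.31 ± 0.08 in M1 (adjusted p = 0.0088) and lower by -0.37 ± 0.08 in M2a (adjusted p = 0.0038) than in M0 cells. The M1 call was lost with the hybridization covariate (0.28, adjusted p = 0.14), the actin covariate (0.26, adjusted p = 0.057) and quantile normalization (0.10, adjusted p = 0.46). The difference between M1 and M2a was 0.67 ± 0.09 (adjusted p = 0.00011) and stood in all 24 alternatives.

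Other accessory subunits of complex I also parted in M1. Ndufb1 rose by 0.76 ± 0.10 (adjusted p = 0.00014) and Ndufc2 by 0.76 ± 0.12 (adjusted p = 0.00032), and Ndufb7 fell by 0.67 ± 0.11 (adjusted p = 0.00046). With the hybridization covariate Ndufc2 was 0.43 (adjusted p = 0.11) and Ndufb7 -0.35 (adjusted p = 0.15). Ndufb1 averaged 8.01 ± 0.21 in M1, 7.48 ± 0.07 in M2a and 7.25 ± 0.09 in M0 cells, and its rise in M1 was kept in all 24 alternatives. In M2a, Ndufa9, an accessory subunit near the site of ubiquinone reduction, averaged 10.62 ± 0.03 against 9.84 ± 0.35 in M0 cells, a rise of 0.79 ± 0.17 (adjusted p = 0.0037). That value was -0.03 with the hybridization covariate, whereas Ndufs5, at 10.51 ± 0.05 in M2a and 9.86 ± 0.10 in M0 cells, kept its call in all 24 alternatives. Ndufb1 was also higher in M1 than in M2a, by 0.53 ± 0.12 (adjusted p = 0.0052).

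**Figure D3:**
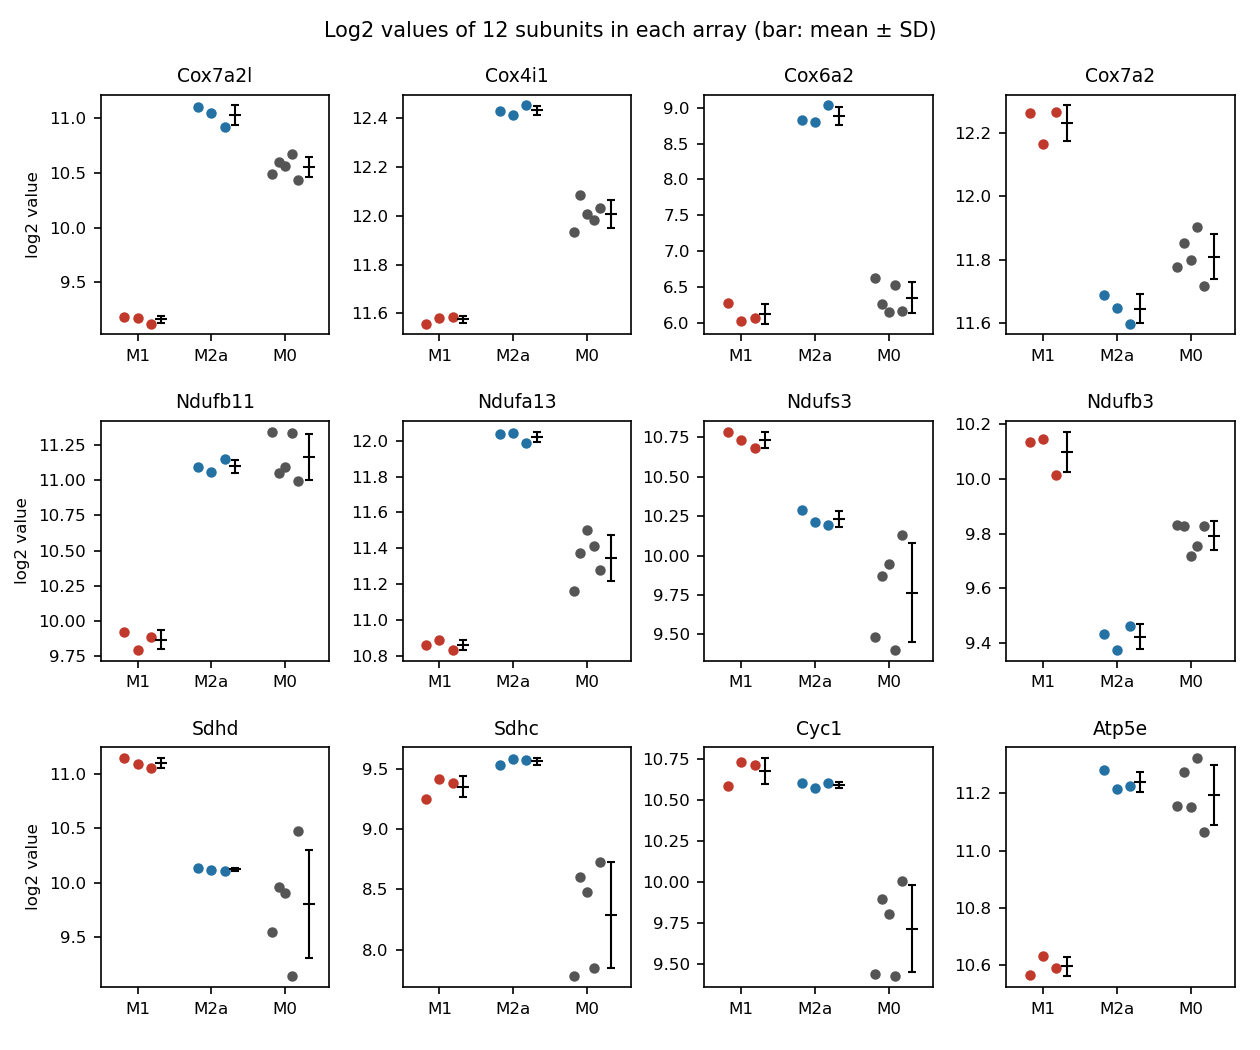
Points are single arrays, with M1 left, M2a in the middle and M0 right, and bars give mean ± SD (n = 3, 3 and 5); the y axis is the log2 value and differs between panels. M1 lies below M2a and M0 in Cox7a2l, Cox4i1, Ndufb11, Ndufa13 and Atp5e and above both in Cox7a2, Ndufs3, Ndufb3 and Sdhd.

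Complex II is represented by its 2 membrane anchors, which hold the haem and the ubiquinone site. Sdhd measured 11.15, 11.09 and 11.06 in M1 arrays, 10.14, 10.12 and 10.11 in M2a arrays and 9.55, 9.96, 9.91, 9.14 and 10.47 in M0 arrays. The M1 arrays were above all others, and the M2a arrays lay within the wide range of M0. Sdhd was higher by 1.29 ± 0.23 in M1 (adjusted p = 0.00085) and by 0.98 ± 0.25 in M1 against M2a (adjusted p = 0.013), while its difference between M2a and M0 was 0.32 ± 0.23 (adjusted p = 0.32). With the hybridization covariate the M1 difference from M0 was 0.07 and that from M2a 0.82, and a second probe set gave 0.42 and 0.12.

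Sdhc measured 9.25, 9.42 and 9.38 in M1 arrays, 9.53, 9.59 and 9.57 in M2a arrays and 7.78, 8.61, 8.47, 7.85 and 8.72 in M0 arrays. Both cytokine states were above every M0 array, and M0 arrays 1 and 4 were the lowest. Sdhc rose by 1.07 ± 0.21 in M1 (adjusted p = 0.0016) and by 1.28 ± 0.21 in M2a (adjusted p = 0.00062), and these values were -0.12 and 0.24 with the hybridization covariate. The catalytic subunits lie outside the symbol rule. Sdhb, the iron-sulfur subunit, averaged 11.72 in M1, 11.47 in M2a and 10.68 in M0 cells and was higher by 1.05 ± 0.15 in M1 (adjusted p = 0.00017) and by 0.79 ± 0.15 in M2a (adjusted p = 0.0016), values of 0.25 and 0.10 with the hybridization covariate, and Sdha, the flavoprotein, passed in neither comparison (adjusted p = 0.22 and 0.064).

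Complex III had 6 of 9 subunits higher and 1 lower in M1, and 7 higher and 1 lower in M2a, against M0. With the hybridization covariate 0 were higher and 0 lower in M1, and 1 higher and 1 lower in M2a. That lower subunit was Uqcr11, which was not called without the covariate. With the actin covariate the counts were 3 and 1, and 7 and 1. Of its 4 core or catalytic subunits, 3 were higher in M1 and 4 in M2a. Cyc1, cytochrome c1, measured 10.59, 10.73 and 10.71 in M1 arrays, 10.60, 10.57 and 10.60 in M2a arrays and 9.44, 9.90, 9.81, 9.43 and 10.01 in M0 arrays. M1 and M2a overlapped each other and both stood above M0. Cyc1 rose by 0.96 ± 0.14 in M1 (adjusted p = 0.00019) and by 0.87 ± 0.14 in M2a (adjusted p = 0.00052), and the value was 0.26 in both with the hybridization covariate.

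Uqcrc1, a core protein of complex III, averaged 10.40 ± 0.08 in M1, 10.85 ± 0.04 in M2a and 10.17 ± 0.10 in M0 cells. It rose by 0.67 ± 0.09 in M2a (adjusted p = 0.00014), kept that call in all 24 alternatives, and was lower by -0.44 ± 0.10 in M1 against M2a (adjusted p = 0.005). Uqcrc2, the other core protein, rose by 0.89 ± 0.20 in M1 (adjusted p = 0.0038), but its second probe set gave 0.21 and the hybridization covariate -0.07. Uqcrfs1, the Rieske iron-sulfur protein, averaged 10.24 ± 0.04 in M1, 10.17 ± 0.03 in M2a and 9.44 ± 0.51 in M0 cells, where single arrays spread from 8.75 to 10.13. Its rises of 0.80 ± 0.23 in M1 (adjusted p = 0.016) and 0.73 ± 0.23 in M2a (adjusted p = 0.031) were -0.38 and -0.30 with the hybridization covariate.

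Uqcrh, the hinge protein that binds cytochrome c1, was the 1 lower subunit of complex III in both states. It measured 11.07, 11.07 and 11.03 in M1 arrays, 11.12, 11.15 and 11.02 in M2a arrays and 11.48, 11.44, 11.42, 11.45 and 11.45 in M0 arrays. The M0 arrays, 1 and 4 among them, were within 0.1 of each other and above all M1 and M2a arrays. It was lower by -0.39 ± 0.07 in M1 (adjusted p = 0.0014) and -0.35 ± 0.07 in M2a (adjusted p = 0.0035), and by -0.35 and -0.31 with the hybridization covariate (adjusted p = 0.055 and 0.054). Its second probe set gave -0.165 and -0.255. Uqcrq, a small subunit, was higher by 0.78 ± 0.12 in M2a (adjusted p = 0.00037). That value was 0.32 with the hybridization covariate (adjusted p = 0.086), and its 3 other probe sets gave -0.0641, 0.66 and 0.24.

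Complex IV had 6 of 19 subunits higher and 5 lower in M1, and 8 higher and 3 lower in M2a, against M0. In M1 its 31.6% higher is near the 30.3% of genes above the median gene. With the hybridization covariate 4 were higher and 3 lower in M1, and 8 higher and 1 lower in M2a. Of these higher calls, Cox4i2 and Cox8b in M1 and Cox8b and Ndufa4l2 in M2a were not made without the covariate. The M1 calls of Cox7c, Cox8a, Cox6c and Cox5a and the M2a calls of Cox8a and Cox6c were lost. With the actin covariate the counts were 5 and 5, and 9 and 3. Cox7a2l, also called SCAF1, holds complexes III and IV together in a supercomplex, and C57BL/6 mice carry an allele that encodes a shortened protein. Cox7a2l measured 9.18, 9.17 and 9.12 in M1 arrays, 11.10, 11.05 and 10.93 in M2a arrays and 10.49, 10.60, 10.56, 10.67 and 10.43 in M0 arrays. The 3 groups did not overlap, with M1 lowest and M2a highest. The difference was -1.39 ± 0.09 in M1 (adjusted p = 2.2e-07), 0.48 ± 0.09 in M2a (adjusted p = 0.0014) and -1.87 ± 0.10 between M1 and M2a (adjusted p = 4.5e-08). Its other 2 probe sets gave -0.93 and -1.24 in M1 and 0.64 and 0.68 in M2a, and with the hybridization covariate the values were -1.29, 0.57 and -1.85.

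Cox4i1, the ubiquitous form of the regulatory subunit IV, followed the same order. It measured 11.56, 11.58 and 11.59 in M1 arrays, 12.43, 12.41 and 12.45 in M2a arrays and 11.93, 12.09, 12.01, 11.98 and 12.03 in M0 arrays, with no overlap. It was lower by -0.43 ± 0.07 in M1 (adjusted p = 0.00073), higher by 0.42 ± 0.07 in M2a (adjusted p = 0.0011) and -0.86 ± 0.08 in M1 against M2a (adjusted p = 1e-05), and all 3 calls stood in 24 alternatives. Cox5b, a nuclear subunit on the matrix face, averaged 11.99 ± 0.04 in M1, 12.43 ± 0.07 in M2a and 11.93 ± 0.07 in M0 cells and rose in M2a by 0.50 ± 0.08 (adjusted p = 0.00056). Cox5a, which binds Cox4i1, averaged 12.41 ± 0.11 in M1, 12.19 ± 0.04 in M2a and 11.99 ± 0.10 in M0 cells and rose in M1 by 0.42 ± 0.09 (adjusted p = 0.0031), or 0.21 with the hybridization covariate (adjusted p = 0.29).

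Cox7a2, the widely expressed form of subunit VIIa and a paralog of Cox7a2l, was higher in M1. It measured 12.26, 12.17 and 12.27 in M1 arrays, 11.69, 11.65 and 11.60 in M2a arrays and 11.78, 11.85, 11.80, 11.90 and 11.72 in M0 arrays. M1 was above all other arrays, and M2a lay just below M0. The difference was 0.42 ± 0.08 in M1 (adjusted p = 0.0014) and 0.59 ± 0.09 in M1 against M2a (adjusted p = 0.00037), while -0.17 ± 0.08 in M2a against M0 did not pass (adjusted p = 0.14). Cox8a rose in both states, by 0.57 ± 0.08 in M1 (adjusted p = 0.00019) and 0.50 ± 0.08 in M2a (adjusted p = 0.00071), and Cox7c rose in M1 by 0.74 ± 0.17 (adjusted p = 0.0053). The probe set used for Cox7c read low, at 6.62 in M1 and 5.88 in M0 cells, where Cox8a averaged 11.63 and 11.05. The Cox7c value was 0.22 with the hybridization covariate (adjusted p = 0.59) and 0.25 with the actin covariate (adjusted p = 0.24), and those of Cox8a were 0.35 and 0.30 with the hybridization covariate (adjusted p = 0.058 and 0.063). Ndufa4, once counted with complex I and now with complex IV, averaged 10.55 ± 0.04 in M1, 10.61 ± 0.04 in M2a and 10.94 ± 0.14 in M0 cells and was lower by -0.39 ± 0.09 (adjusted p = 0.0064) and -0.34 ± 0.09 (adjusted p = 0.018).

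Among 8 isoforms known from muscle, testis, lung or hypoxic cells, Cox6a2 stood apart. It measured 6.29, 6.04 and 6.07 in M1 arrays, 8.82, 8.81 and 9.03 in M2a arrays and 6.63, 6.27, 6.16, 6.53 and 6.17 in M0 arrays. The M2a arrays were more than 2 log2 units above all others, and M1 and M0 overlapped. The rise in M2a was 2.53 ± 0.13 (adjusted p = 9.7e-08), a fold of 5.79, its second probe set gave 3.32, and the call stood in all 24 alternatives. Cox8c was higher in both states, by 0.41 ± 0.10 in M1 (adjusted p = 0.0061) and 0.34 ± 0.10 in M2a (adjusted p = 0.019). Both calls were lost with quantile normalization (0.24 and 0.27, adjusted p = 0.26 and 0.22). The second probe set of Cox8c gave 1.53 in M1 and 0.27 in M2a. Cox4i2 was called higher in M2a at 0.46 ± 0.14 (adjusted p = 0.03), with overlapping arrays and a mean of 5.72 ± 0.13 in M2a and 5.26 ± 0.26 in M0 cells. Cox6b2 and Cox7b2 were called lower in both states at levels near the bottom of the scale, from 2.58 to 4.98 in M1, 2.86 to 4.87 in M2a and 3.22 to 5.54 in M0 arrays, and Cox7a1, Cox8b and Ndufa4l2 passed in neither.

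**Figure D4:**
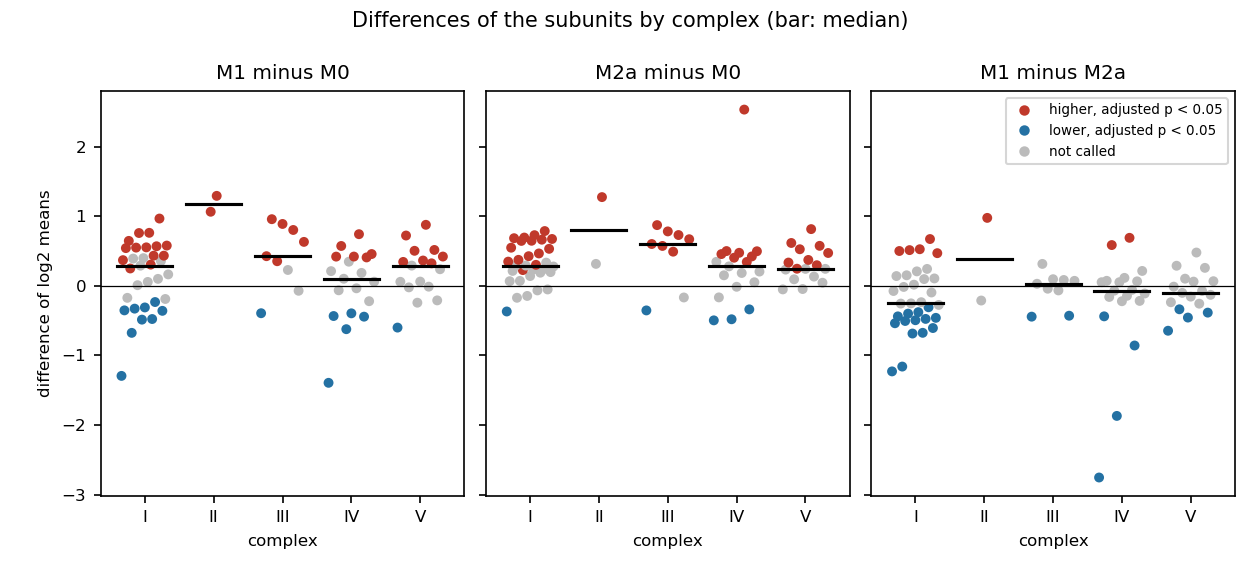
Each point is 1 subunit, plotted by complex on the x axis with its difference of group means in log2 units on the y axis, coloured by call, and the bar is the median of the complex. The medians of complex III are 0.43 for M1 minus M0 and 0.60 for M2a minus M0, and complexes I and IV hold most of the lower calls in M1.

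Complex V had 8 of 17 subunits higher and 1 lower in M1, and 9 higher and 0 lower in M2a, against M0. With the hybridization covariate 0 were higher and 4 lower in M1, and 1 higher and 1 lower in M2a. Atp5g1, lower in both, and Atp5h and Atp5j2, lower in M1, were not called without the covariate. With the actin covariate the counts were 4 and 2, and 12 and 0. Atp5b, the catalytic beta subunit, measured 12.46, 12.47 and 12.47 in M1 arrays, 12.40, 12.40 and 12.42 in M2a arrays and 11.50, 11.70, 11.57, 11.13 and 12.05 in M0 arrays. Both cytokine states were above all M0 arrays. It rose by 0.88 ± 0.16 in M1 (adjusted p = 0.0011) and 0.82 ± 0.16 in M2a (adjusted p = 0.0023), and the values were 0.13 and 0.16 with the hybridization covariate. Atp5a1, the alpha subunit, rose by 0.52 ± 0.14 in M1 (adjusted p = 0.01) and 0.62 ± 0.14 in M2a (adjusted p = 0.0047), values of -0.13 and 0.05 with the hybridization covariate.

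Atp5e, the epsilon subunit of the central stalk, was the lower one. It measured 10.56, 10.63 and 10.59 in M1 arrays, 11.28, 11.21 and 11.22 in M2a arrays and 11.16, 11.28, 11.15, 11.32 and 11.07 in M0 arrays. M1 lay below all other arrays, and M2a and M0 overlapped. The difference was -0.60 ± 0.08 in M1 against M0 (adjusted p = 0.00017) and -0.64 ± 0.09 against M2a (adjusted p = 0.00029), and both stood in 23 alternatives. The only probe set of Atp5e is shared between transcripts, so the fit without such probe sets could not include it. Atp5j, coupling factor 6 of the peripheral stalk, rose in M1 by 0.72 ± 0.19 (adjusted p = 0.0097), which became -0.12 with the hybridization covariate, and Atp5h, the d subunit of that stalk, was lower in M1 than in M2a by -0.46 ± 0.09 (adjusted p = 0.0026). Of the 3 genes for the c ring, Atp5g3 was called higher in M1, at 0.50 ± 0.11 (adjusted p = 0.0027), and none in M2a. The call was lost with the hybridization covariate (0.0044, adjusted p = 0.98) and the actin covariate (0.30, adjusted p = 0.072).

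Atpif1, the inhibitor that binds ATP synthase and that the symbol rule leaves out, averaged 9.30 in M1, 10.80 in M2a and 10.45 in M0 cells. It was lower by -1.15 ± 0.10 in M1 (adjusted p = 4.1e-06), higher by 0.35 ± 0.10 in M2a (adjusted p = 0.021) and -1.50 ± 0.11 in M1 against M2a (adjusted p = 1.1e-06). Over the alternatives its M1 difference ranged from -1.37 to -0.269, and its M2a difference from 0.162 to 0.382, with adjusted p up to 0.447.

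**Figure D5:**
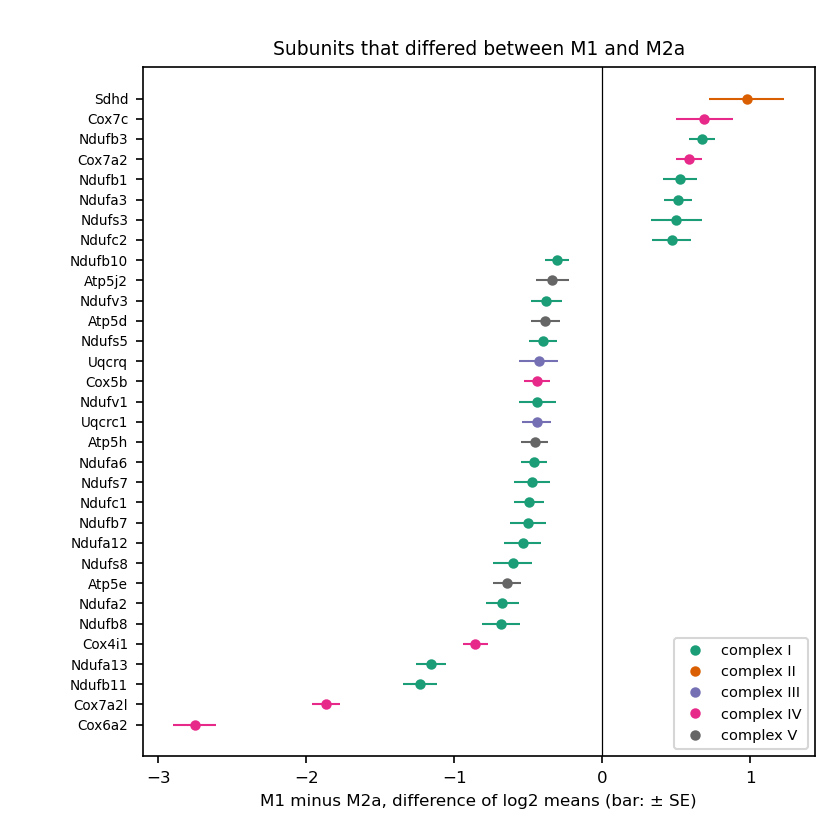
The 32 subunits called between M1 and M2a are ordered by the difference of group means, M1 minus M2a, in log2 units on the x axis, with bars of ± SE and colours by complex. Cox6a2, Cox7a2l, Ndufb11 and Ndufa13 lie below -1, and Sdhd is the highest at 0.98.

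Set directly against M2a, most subunits that differed were lower in M1. Beside those above, Ndufb8, an accessory subunit, averaged 10.61 ± 0.0033 in M1, 11.29 ± 0.03 in M2a and 10.60 ± 0.21 in M0 cells and was lower in M1 than in M2a by -0.68 ± 0.13 (adjusted p = 0.0016). Ndufs8, a core iron-sulfur subunit, was lower by -0.61 ± 0.13 (adjusted p = 0.0043), Uqcrq by -0.43 ± 0.13 (adjusted p = 0.029) and Cox7c higher by 0.69 ± 0.19 (adjusted p = 0.019). Kept in every alternative were 13 of the 24 lower calls and 4 of the 8 higher calls, those of Cox7a2, Ndufa3, Ndufb1 and Ndufb3. In M1 against M0, 7 of 16 lower calls were kept in every alternative (Atp5e, Cox4i1, Cox7a2l, Ndufa13, Ndufa4, Ndufb10 and Ndufb11) and 2 of 36 higher calls (Cox7a2 and Ndufb1). In M2a against M0, 8 of 41 higher calls were (Atp5d, Cox4i1, Cox5b, Cox6a2, Cox7a2l, Ndufa13, Ndufs5 and Uqcrc1) and 1 of 5 lower calls, that of Ndufb3. Atp5d, Atp5e, Ndufa13 and, among the 13, Ndufa2 have only probe sets shared between transcripts. They were checked in 23 alternatives, without the fit that leaves such probe sets out.

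Genes that build or feed the chain were read from lists drawn up with earlier results of these data known. Of 17 measured complex IV assembly factors, 9 were higher and 0 lower in M1, and 9 were higher and 1 lower in M2a, against M0. These and the counts of the lists below stand beside 22.1% higher and 17.6% lower among all genes in M1 and 18.6% and 13.3% in M2a. With the hybridization covariate 3869 of all 18193 genes were higher and 3976 lower in M1, and 4137 and 4021 in M2a. Of the 17, 2 were higher and 3 lower in M1 with the hybridization covariate, and 1 was higher and 7 lower in M2a. Coa5, needed for complex IV biogenesis, averaged 11.41 in M1, 10.14 in M2a and 9.84 in M0 cells, a rise of 1.57 ± 0.14 in M1 (adjusted p = 4.3e-06) and 0.86 with that covariate. Sco2, a copper chaperone, rose by 1.07 ± 0.19 in M2a (adjusted p = 0.0013), or 0.09 with it. Of 15 complex I assembly factors, 4 were higher and 0 lower in each state, led by Ndufaf3 at 1.33 ± 0.18 in M1 (adjusted p = 0.00016) and Tmem126b at 1.60 ± 0.22 in M2a (adjusted p = 0.00019), or 0.43 and 0.60 with the covariate. With it 1 of the 15 was higher and 7 lower in M1, and 1 higher and 6 lower in M2a. Of 76 mitochondrial ribosomal proteins, 18 were higher and 5 lower in M1 and 21 were higher and 4 lower in M2a, with medians of 0.26 and 0.29. The higher shares were 23.7% and 27.6%, and with the hybridization covariate 1 was higher and 40 lower in M1 and 2 were higher and 35 lower in M2a. Of 7 carriers and channels of the mitochondrial membranes, 1 was higher in M1 and 5 in M2a, Vdac3 of the outer membrane most at 1.04, and none was lower. With the hybridization covariate 0 were higher in M1 and 2 in M2a, and 0 were lower. Of 6 complex III assembly factors 2 were higher and 1 lower in M1 and 1 higher and 1 lower in M2a. With the hybridization covariate these were 1 and 1, and 0 and 2. Of 5 for complex V 2 were higher in M1 and 1 in M2a. With that covariate 0 were higher and 4 lower in M1, and 0 higher and 3 lower in M2a. Of 4 complex II assembly factors 1 was higher in M1, Sdhaf2, which attaches the flavin to Sdha, at 1.24, or -0.0031 with the covariate. With it 0 of these were higher, and 2 were lower in M1 and 3 in M2a.

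Cytochrome c and ubiquinone carry electrons between the complexes. Cycs, somatic cytochrome c, averaged 12.11 in M1, 11.57 in M2a and 11.06 in M0 cells and rose by 1.04 ± 0.11 in M1 (adjusted p = 1.7e-05) and 0.51 ± 0.11 in M2a (adjusted p = 0.0043), or 0.64 and 0.15 with the hybridization covariate (adjusted p = 0.014 and 0.43). In its list of 16 genes, with ubiquinone synthesis and the electron transfer flavoproteins, 6 were higher and 1 lower in M1 and 5 were higher and 1 lower in M2a. With the hybridization covariate 2 were higher and 7 lower in M1, and 1 was higher and 4 lower in M2a. Etfb, which passes electrons from fatty acid oxidation to ubiquinone, was the lower gene in M1 without the covariate, at -0.99 ± 0.11 (adjusted p = 2.1e-05). In M2a it was -0.10 ± 0.11 (adjusted p = 0.52). Of 23 import genes 7 were higher and 2 lower in M1, and 6 were higher and 0 lower in M2a, and with the hybridization covariate 2 and 8, and 4 and 6. Of 13 genes of mitochondrial DNA maintenance 1 was higher and 1 lower in M1, and 4 were higher and 1 lower in M2a. With the hybridization covariate these were 0 and 8, and 0 and 4. Polg, the mitochondrial DNA polymerase, was the lower one in both without the covariate, at -0.81 ± 0.10 (adjusted p = 5.8e-05) and -1.42 ± 0.10 (adjusted p = 1.3e-06).

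Known regulators of respiratory genes moved unevenly, with 4 of 13 higher and 6 lower in M1, and 4 higher and 2 lower in M2a. With the hybridization covariate these were 2 and 8 in M1, and 1 and 6 in M2a. Ppargc1b, a coactivator induced by IL-4 in mouse macrophages, measured 8.04, 8.22 and 8.16 in M1 arrays, 9.04, 9.12 and 8.92 in M2a arrays and 6.53, 6.94, 6.98, 7.11 and 6.52 in M0 arrays. It rose in both states, by 1.33 ± 0.14 in M1 (adjusted p = 2.2e-05) and 2.21 ± 0.14 in M2a (adjusted p = 6.5e-07), with no overlap between groups. Hif1a, the hypoxia-inducible factor, rose by 2.56 ± 0.21 in M1 (adjusted p = 2.3e-06) and differed by -0.08 ± 0.21 in M2a (adjusted p = 0.79). Epas1, its paralog, was lower by -2.45 ± 0.40 in M1 (adjusted p = 0.00047) and higher by 2.09 ± 0.40 in M2a (adjusted p = 0.0019). Epas1 was -4.83 in M1 and 0.02 in M2a with the hybridization covariate, and Hif1a was 1.60 in M1 and -0.92 in M2a (adjusted p = 0.022). Myc was lower in M1 by -1.56 ± 0.19 (adjusted p = 5.2e-05), Nrf1 by -0.39 ± 0.10 (adjusted p = 0.011), and Tfam, the packaging factor of mitochondrial DNA, passed in neither state (adjusted p = 0.94 and 0.16).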

How the data were processed

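RNA of 11 samples (3 M1, 3 M2a and 5 M0) was measured on Affymetrix Mouse Genome 430 2.0 arrays. Log2 values of 45101 probe sets were deposited, and per the submitters' processing notes Partek was used; how background, probe summary and scaling were handled is not given in the sources used here, so a change in the scale of a whole array cannot be checked. A probe set table named 34945 probe sets with 1 gene; 932 with several genes and 9211 unlisted ones were left out, and 6 subunit genes by the rule are not analysed here. Some items are not reported here. The 80 subunits, the lists and the named genes were chosen with earlier results of these data known. Named were the 2 largest rises and falls per complex without overlap between groups, plus catalytic, supercomplex and tissue-restricted members; Ndufs5, Ndufb8, Ndufs8, Atp5g3 and the subunits listed as kept in every alternative were named after their values were seen. Differences were tested with limma 3.58.1 in R 4.3.3 (lmFit, eBayes, 11 arrays in 1 fit, 8 residual degrees of freedom, which count the M0 arrays as independent), adjusted by Benjamini-Hochberg over 18193 genes with a threshold of 0.05. The fit was tested on simulated data with independent arrays and an equal spread in all groups, which does not cover tied M0 arrays or a wider M0 spread. The number of arrays limits the precision. Alternatives were normalization, probe set choice, a filter on low values, variance model, arrays left out, array weights, control-probe covariates, replicate number and a 2-fold threshold.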

Additional observations from a re-analysis of the deposited data

How the results depend on the processing

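In M1 against M0, the number of higher subunits was 36 and became 19 with the actin covariate, 5 with the hybridization covariate and 2 at the 2-fold threshold; the number lower was 16, and 2 at 2-fold. The median difference of 0.29 became 0.10 with the actin and -0.16 with the hybridization covariate. In M2a against M0, 41 higher became 13 with the hybridization covariate and 2 at 2-fold, 5 lower became 8 with that covariate, 3 among genes above the median gene and 0 at 2-fold, and the median became 0.0222 with the hybridization covariate. In M1 against M2a, 8 higher became 4 with the actin covariate, 17 with array weights and 15 with only these groups in the fit. They became 13 without M0 arrays 1 and 4 and 0 at 2-fold, and 24 lower became 4 at 2-fold. Of all genes, 2500 were called higher in the main fit, 3248 with the actin covariate and 5321 with array weights. With only these groups 4914 were, and without M0 arrays 1 and 4 it was 4104. Leaving out 1 array in turn gave 28 to 41 higher and 12 to 17 lower in M1 against M0, 27 to 44 and 3 to 5 in M2a against M0, and 5 to 9 and 19 to 25 in M1 against M2a, with medians of 0.26 to 0.31, 0.26 to 0.34 and -0.13 to -0.07. Over all genes, leaving out 1 array gave 2897 to 4738 higher and 2494 to 3719 lower in M1 against M0. It gave 2312 to 4078 and 1849 to 2751 in M2a against M0, and 1852 to 2922 and 2075 to 3270 in M1 against M2a. The cause of these shifts was not tested.

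Deviations from the group means correlated between same-numbered arrays at -0.0392 to 0.2485, and between differently numbered arrays at -0.3406 to 0.3406. With so few arrays and tied M0 arrays, these values cannot show whether the numbers pair the samples. With the replicate number as a block the counts were 37 and 14, 37 and 5, and 10 and 24. Without M0 arrays 1 and 4, which had the highest hybridization controls, they were 38 and 20, 41 and 7, and 13 and 31.

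With the hybridization covariate, 13 of the 36 subunits called higher in M1 and 10 of the 41 called higher in M2a had a negative difference. Among genes named by rule for a comparison and called with or without the covariate, the M1 difference from M0 turned negative for Atp5a1 (-0.13), Atp5j (-0.12), Atpaf2 (-0.35), Coq10b (-0.47), Mrps22 (-0.64), Ndufs1 (-0.62), Sdhaf2 (-0.0031), Sdhc (-0.12), Timm17a (-0.25), Uqcc1 (-0.18), Uqcrc2 (-0.0730), Uqcrfs1 (-0.38) and Vdac2 (-0.13). The M2a difference did so for Coq10b (-0.0744), Lrpprc (-0.31), Mrpl1 (-0.23), Mterf4 (-0.23), Ndufa9 (-0.03), Ndufs1 (-0.59), Sdhd (-0.75), Tfam (-0.81), Uqcc1 (-0.20) and Uqcrfs1 (-0.30). With the actin covariate Mrps22 became -0.0328 in M1, and M1 against M2a became -0.44 for Atp5b and -0.68 for Uqcrfs1. The mean over probe sets gave Creb1 0.26 in M2a, Mrpl19 0.0876 in M1 and Ttc19 -0.0660 between M1 and M2a. Without probe sets shared between transcripts, Mrpl19 was 0.88 and Mrpl38 -0.16 in M1, Mrpl38 -0.54 between M1 and M2a, and Uqcrq -0.0641 in M2a. Of 4696 values of named genes under 24 alternatives, 4365 kept their side of the threshold and, where called, their direction. Values called in neither fit were counted among these even where their direction changed.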

Other observations

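AA467197, whose synonym in RefSeq is Nmes1, is the mouse counterpart of a human gene whose product replaces NDUFA4 in complex IV during inflammation; it was looked up after the values of Ndufa4 had been seen and belongs to none of the lists. It measured 10.48, 10.65 and 10.63 in M1 arrays, 9.75, 9.88 and 9.50 in M2a arrays and 7.86, 6.76, 7.26, 7.06 and 7.53 in M0 arrays, with no overlap between groups. The difference was 3.30 ± 0.21 in M1 (limma, adjusted p = 2.6e-07) and 2.42 ± 0.21 in M2a (adjusted p = 5.8e-06) against M0, and 0.88 ± 0.23 in M1 against M2a (adjusted p = 0.014). Over all settings it ran from 3.07 to 3.75 in M1 and from 2.28 to 2.81 in M2a, and between M1 and M2a from 0.663 to 0.961, where the adjusted p was at most 0.113. Ndufa4 was lower in both states, as given above.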
